A study of Homo sapiens with 6 samples.

Results

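The genes described here encode the proteins of the cytosolic ribosome, the particle that translates nuclear mRNAs. They were chosen by name: protein-coding genes not placed on chromosome Y whose symbol is RPL or RPS followed by a number (with A, X or L suffixes), plus RPSA, RPLP0, RPLP1 and RPLP2. The rule found 84 of the 58735 genes listed, 52 named for the large subunit and 32 for the small subunit, and no expression value was used to choose them. They lay on 21 chromosomes, with 12 on chromosome 19.

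A ribosome holds 1 copy of most of its proteins, and cells make these proteins in near-equal amounts, coordinated with rRNA synthesis in the nucleolus. Their mRNAs are among the most abundant of a dividing cell and usually start with a 5′ terminal oligopyrimidine (TOP) tract, a C followed by further C or T bases, which couples their translation to mTOR activity. Several members have a paralog, a related gene whose protein can take the same place in the ribosome.

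The libraries came from MCF10A, a non-malignant human breast epithelial cell line that grows without forming tumors. DAB2IP encodes a Ras GTPase-activating protein, and the study asked what its loss does in breast epithelium. For 3 libraries the cells received a nontargeting siRNA pool (siControl), for the other 3 an siRNA pool that targets DAB2IP (siDAB2IP), and total RNA was taken 48 hours later. All 6 were grown in the same medium with horse serum, insulin, epidermal growth factor, cholera toxin and hydrocortisone, and all come from 1 cell line. Both arms were transient transfections, the siRNA sequences were not used here, and the labels do not say whether the replicates were separate cultures. P-values therefore measure only the spread between these libraries, which may be technical.

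The libraries held 16353783 to 21916062 counts. DAB2IP itself, on chromosome 9 and no member, was measured at 103, 94.2 and 77.4 CPM (counts per 1e+06 counts of the library, scaled by edgeR's TMM factors) in siControl replicates 1 to 3 and at 27.5, 25.6 and 22.4 in siDAB2IP. This is a log2 fold change of -1.86 ± 0.13 (SE; edgeR quasi-likelihood test with Benjamini-Hochberg adjustment, adjusted p = 9.7e-05). All 9 mammary epithelial markers checked had counts in every library. 5 of them were lower in all 3 siDAB2IP libraries than in any siControl library, among them KRT5 (1763 to 1844 against 3129 to 3879 CPM) and KRT14, and LAMB3 was higher (1552 to 1889 against 831 to 879 CPM). The lymphocyte gene CD3E was at 0 in every library, and PTPRC did not pass 0.186 CPM. Of the fibroblast markers, COL1A2 and PDGFRA did not pass 0.186 CPM, PDGFRB was at 0.232 to 1.23 CPM, and COL1A1 was higher in all 3 siDAB2IP libraries (23.1 to 32.6 CPM, against at most 16.5 in siControl). The endothelial markers PECAM1, CDH5 and VWF had counts in every library, at 0.959 to 9.39 CPM, and PECAM1 was lower in all 3 siDAB2IP libraries. The part of these markers in the results was not tested. Genes with an adjusted p under 0.05 over the 15430 genes tested are called changed below.

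The annotated transcription starts show what these genes share that their names do not. For 67 of the 84 members the RefSeq tables (GRCh38.p14) gave at least 1 window around the annotated start. 47 of the 67 (70.1%) had a window in which a C stands at the start itself and is followed by at least 4 C or T bases, on the transcribed strand, against 988 of the 15843 protein-coding genes with a window (6.24%). Of the 5 paralogs with a window, 1 had the run at its start. A match describes letters at an annotated position, and a missing match says only that this position does not begin with them.

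The windows below cover 10 bases before the start and 20 from the start on, 5′ to 3′, with the pyrimidine run at the start in capitals. They are shown for the member that was called lower in siDAB2IP (RPS25), for RPL22 and its paralog RPL22L1, for RPS27 and its paralog RPS27L, for the most abundant member (RPL13A) and for RPS19 and RPS26, whose levels are given below.
RPS25: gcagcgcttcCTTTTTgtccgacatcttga
RPL22: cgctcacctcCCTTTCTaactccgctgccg
RPL22L1: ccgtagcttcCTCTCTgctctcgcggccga
RPS27: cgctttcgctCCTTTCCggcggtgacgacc
RPS27L: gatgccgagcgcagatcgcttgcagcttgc
RPL13A: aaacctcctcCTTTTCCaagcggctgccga
RPS19: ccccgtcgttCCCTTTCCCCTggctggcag
RPS26: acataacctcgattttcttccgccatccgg

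In GRCh38.p14 these lie at chr11:119018324-119018353 (RPS25, minus strand), chr1:6199576-6199605 (RPL22, minus), chr3:170870176-170870205 (RPL22L1, minus) and chr1:153990752-153990781 (RPS27, plus). The others lie at chr15:63157458-63157487 (RPS27L, minus), chr19:49487598-49487627 (RPL13A, plus), chr19:41860245-41860274 (RPS19, plus, 1 of its annotated starts) and chr12:56041908-56041937 (RPS26, plus). RPS25 begins with a run of 6 pyrimidines, as RPL22L1 does, and RPS19 with 11. RPS27 has a run of 7 and its paralog RPS27L has none at its annotated start.

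The levels of the ribosomal protein genes in siDAB2IP lay close to those in siControl, with 1 exception. 82 of the 84 members had enough counts to be tested, and of these 0 were called higher and 1, RPS25, was called lower. Over all genes tested, 6.55% were called higher and 7.65% lower, or 14.2% in either direction. DESeq2 gave the same counts of 0 and 1. At an unadjusted p under 0.05, edgeR gave 1 member higher (RPS27L) and 2 lower (RPS25 and RPL22). The edgeR fit that blocks on replicate number called 0 members higher and 2 lower (RPS25 and RPL22), against 1479 and 1754 of all genes. Calls are from the fit without that block unless the block is named. The 95% interval of the log2 fold change lay within 1 of 0 for 80 of the 82 members and within 0.5 for 62. A change smaller than its interval was not detectable with 3 libraries a group at this depth.

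**Figure D1:**
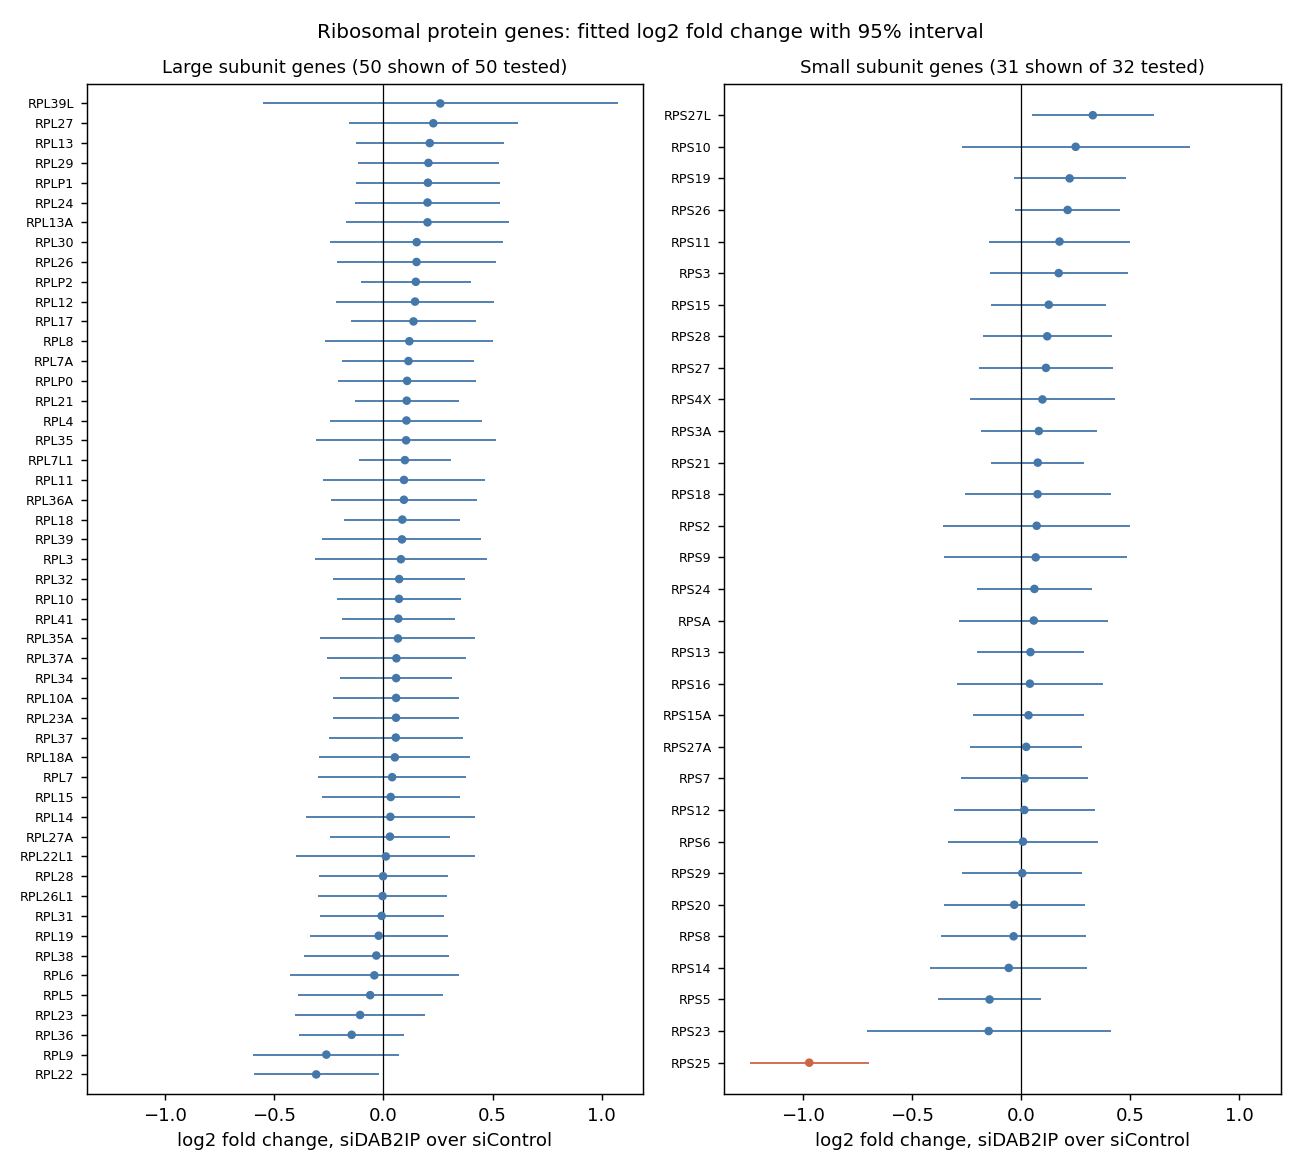
Fitted log2 fold change (siDAB2IP over siControl, x axis) of the ribosomal protein genes tested, 50 of the large subunit on the left and 31 of the 32 of the small subunit on the right, with 95% intervals. RPS25, in orange, sits at -0.97, and the other genes lie between -0.31 (RPL22) and 0.33 (RPS27L).

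The 2 members not tested were paralogs. RPL10L, a testis-expressed paralog of RPL10, had 0 counts in all 6 libraries, which allows up to 0.137 to 0.183 CPM (3 counts per library, counting error only). RPL3L, the striated muscle paralog of RPL3, had 0, 7 and 4 counts in siControl and 4, 8 and 6 in siDAB2IP.

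RPS25 encodes a protein of the head of the small subunit that is needed for initiation at several viral internal ribosome entry sites. It lies at chr11:119015712-119018691 on the minus strand (GRCh38). Its level was 496, 503 and 408 CPM in siControl replicates 1 to 3 and 217, 240 and 261 CPM in siDAB2IP, from 3844 to 10840 counts per library. Every siDAB2IP library was below every siControl library. The group means were 469 ± 53.2 and 239 ± 22.2 CPM (SD, n = 3), so that siDAB2IP held 51.0% of the siControl level. The log2 fold change was -0.97 ± 0.12 (SE, 95% interval -1.24 to -0.70, edgeR adjusted p = 0.00171). In the other 81 members, siDAB2IP held between 80.8% and 126% of the siControl mean. In bulk RNA, less RNA per cell cannot be told apart from a loss in some of the cells. With 1 siRNA pool against DAB2IP, loss of DAB2IP cannot be told apart from other effects of that pool.

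The fall of RPS25 was seen on each scale used, all from the same 6 libraries. On the deposited FPKM scale, which divides by gene length, RPS25 was at 332, 339 and 273 in siControl and at 145, 161 and 175 in siDAB2IP. Its rank among the 84 members by FPKM went from 13, 13 and 12 to 40, 40 and 23. Divided by the median FPKM of the other small subunit genes of the same library, it was 2.07, 2.10 and 2.04 in siControl and 0.902, 0.933 and 1.28 in siDAB2IP. Of all counts on ribosomal protein genes, RPS25 took 1.17%, 1.27% and 1.29% in siControl and 0.521%, 0.557% and 0.763% in siDAB2IP. On each of these 4 measures, siDAB2IP replicate 3 was the closest of its group to siControl.

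RPS25 overlaps exons of TRAPPC4 and CCDC84 on the opposite strand over 20.8% of its exon length, and the strand setting of the counting was not given in the sources used here. Without strand, reads from these overlaps cannot be told apart. TRAPPC4, a vesicle transport gene, was at 23.9 to 25.1 CPM in siControl and 26.6 to 30.3 CPM in siDAB2IP (log2 fold change 0.19 ± 0.11, edgeR adjusted p = 0.295). CCDC84 was at 16.6 to 20.1 CPM in siControl and 17.3 to 30.1 CPM in siDAB2IP (log2 fold change 0.27 ± 0.21, edgeR adjusted p = 0.433). Neither neighbor passed the test. The part of reads from the overlaps in the level of RPS25 was not tested.

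RPL22 and RPL9 had the lowest fold changes after RPS25. RPS27L, which had the highest, and RPS19 and RPS26 are shown for the other side. RPL39L, RPS10 and RPL27 lay above RPS19 and RPS26, with log2 fold changes of 0.26, 0.25 and 0.23. RPL22, RPL9, RPS19 and RPS26 were picked after their values were seen, and the rule for low levels and paralogs names RPS27L. RPL22, which encodes an RNA-binding protein of the large subunit, was at 81.7, 75.9 and 63.2 CPM in siControl and 64.4, 63.1 and 50.7 CPM in siDAB2IP. The groups overlapped by a narrow margin, and the log2 fold change was -0.31 ± 0.13 (edgeR adjusted p = 0.139). In the fit that blocks on replicate number, RPL22 was called lower (log2 fold change -0.31, edgeR adjusted p = 0.0283), and the count of members called lower went from 1 to 2. Within the pairs of same-numbered libraries, it differed by -0.34, -0.26 and -0.31 on the log2 scale. With 1 library left out, it ranged from -0.42 (without siControl replicate 3) to -0.21 (without siDAB2IP replicate 3).

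RPL9 was at 293, 290 and 240 CPM in siControl and 263, 243 and 179 CPM in siDAB2IP. The groups overlapped and the log2 fold change of -0.26 ± 0.15 did not pass the test (edgeR adjusted p = 0.277), and with 1 library left out it ranged from -0.38 (without siDAB2IP replicate 1) to -0.11 (without siDAB2IP replicate 3). RPS27L, a paralog of RPS27, was at 38.5, 39.4 and 38.5 CPM in siControl and at 43.4, 44.8 and 58.1 CPM in siDAB2IP. All 3 siDAB2IP libraries were higher, with replicate 3 well above the other two, and the log2 fold change of 0.33 ± 0.13 did not pass the test (edgeR adjusted p = 0.107). Without replicate 3 of both groups, it was 0.18 (edgeR adjusted p = 0.313).

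RPS19 and RPS26 are small subunit genes mutated in Diamond-Blackfan anemia, and neither passed the test. RPS19 was at 618, 602 and 515 CPM in siControl and at 648, 720 and 655 CPM in siDAB2IP, and the groups did not overlap (log2 fold change 0.22 ± 0.12, edgeR adjusted p = 0.229). RPS26 was at 116, 127 and 108 CPM in siControl and 130, 151 and 126 CPM in siDAB2IP, and the groups overlapped (log2 fold change 0.21 ± 0.11, edgeR adjusted p = 0.218). In all, 2 members (RPS27L and RPS19) had every siDAB2IP library above every siControl library and 1 (RPS25) had every one below, where 17.6% and 18.3% of all genes tested did.

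**Figure D2:**
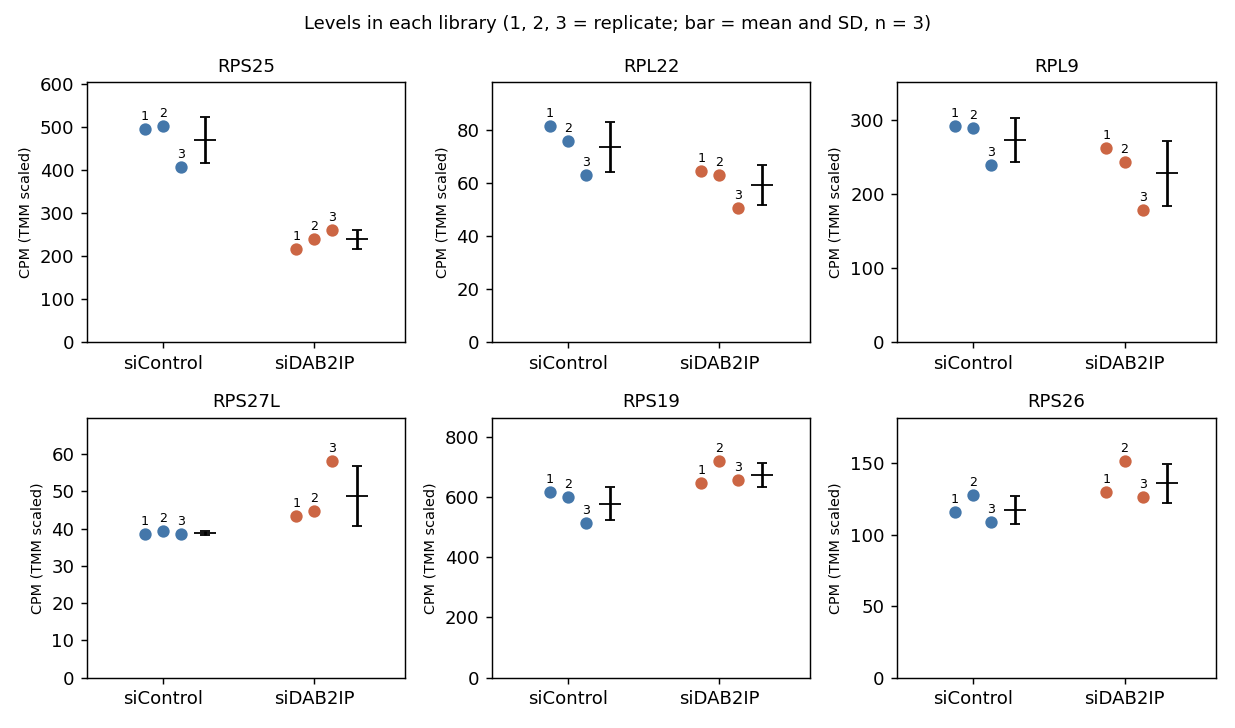
Level of 6 ribosomal protein genes in each library (CPM with TMM scaling, y axis from 0), with the replicate number beside each point and the mean and SD (n = 3) as a bar. For RPS25 the 3 siDAB2IP libraries (217 to 261 CPM) lie far below the 3 siControl libraries (408 to 503 CPM). RPL22, RPL9 and RPS26 overlap between the groups.

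Apart from RPS25, the fold changes of the members were small and spread less than those of all genes. Their median on the log2 scale was 0.068 over the 82 tested (quartiles 0.016 and 0.12), against 0.0090 (quartiles -0.25 and 0.24) over all genes. The genes compared were not matched for level, and the part of level in the spread was not tested. 65 of the 82 were above 0 and 17 below, against 7884 and 7546 of the 15430 genes tested. The 50 large subunit genes tested had a median of 0.072 with 0 called, and the 32 small subunit genes a median of 0.060 with 1 called. Without siControl replicate 3 alone the median of the 82 changed sign, to -0.067, with 23 above 0 and 59 below. Without replicate 3 of both groups, a fit chosen after seeing the data, it was 0.048, with 59 above 0 and 23 below. In the fit that blocks on replicate number it was 0.074, with 66 above 0 and 16 below.

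Replicate 3 was the lowest library of its group for most members. In siControl, replicate 3 was lowest for 77 of the 82 members, and in siDAB2IP for 68, all of them among the 77. The counts on all 84 members together took 4.17%, 3.90% and 3.13% of the library in siControl replicates 1 to 3 and 4.17%, 4.31% and 3.54% in siDAB2IP. The group means of 3.73% ± 0.541 and 4.01% ± 0.407 (SD, n = 3) differed by less than either SD. Without RPS25 the means were 3.69% and 3.98%. Within same-numbered libraries, the share of all 84 members in siDAB2IP differed from that in siControl by -0.0044, 0.407 and 0.414 percentage points in replicates 1 to 3. The mitochondrially encoded genes took 10.6% to 10.9% of the counts in siControl and 10.0%, 9.59% and 12.8% in siDAB2IP replicates 1 to 3. With these genes left out of the total, the members took 4.68%, 4.36% and 3.51% in siControl and 4.63%, 4.76% and 4.06% in siDAB2IP. Replicate 3 was still the lowest of each group. Any other part of the mitochondrially encoded genes in the low share of replicate 3 was not tested.

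**Figure D3:**
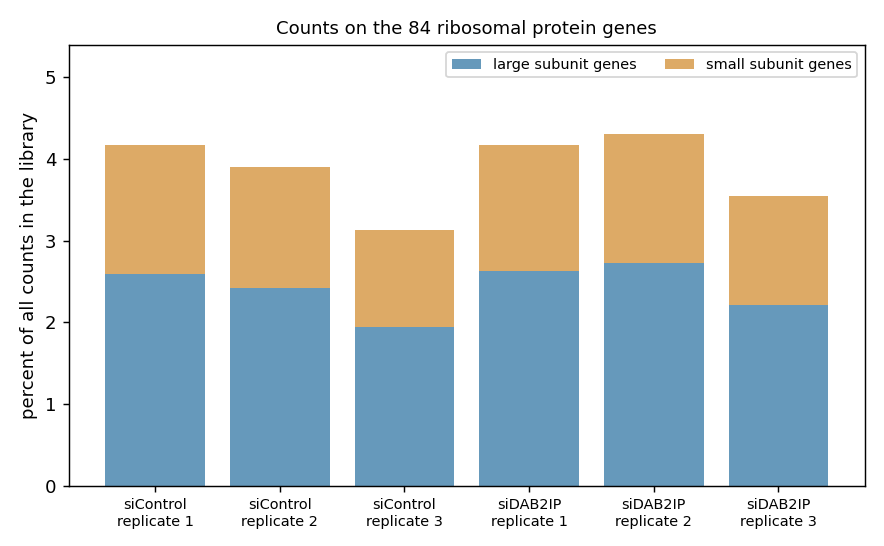
Percent of all counts of each library (y axis from 0) on the 52 large subunit genes (blue) and the 32 small subunit genes (yellow). Replicate 3 is the lowest of each group, at 3.13% in siControl and 3.54% in siDAB2IP, and the groups overlap.

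Libraries with the same replicate number deviated together, so the comparison was also made within the pairs. In pair 1 the members had a median of -0.0072 on the log2 scale, with 40 higher and 42 lower in siDAB2IP. In pairs 2 and 3 the medians were 0.093 and 0.13, with 60 and 69 members higher. RPS25 was the lowest member in every pair, at -1.19, -1.06 and -0.64, and the next lowest was RPL22 in pairs 1 and 2 (-0.34 and -0.26) and RPL9 in pair 3 (-0.42). 30 members were higher in all 3 pairs and 6 lower in all 3. The same count was not made over all genes tested. The members share libraries and scaling, so these are not counts of genes that each changed.

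**Figure D4:**
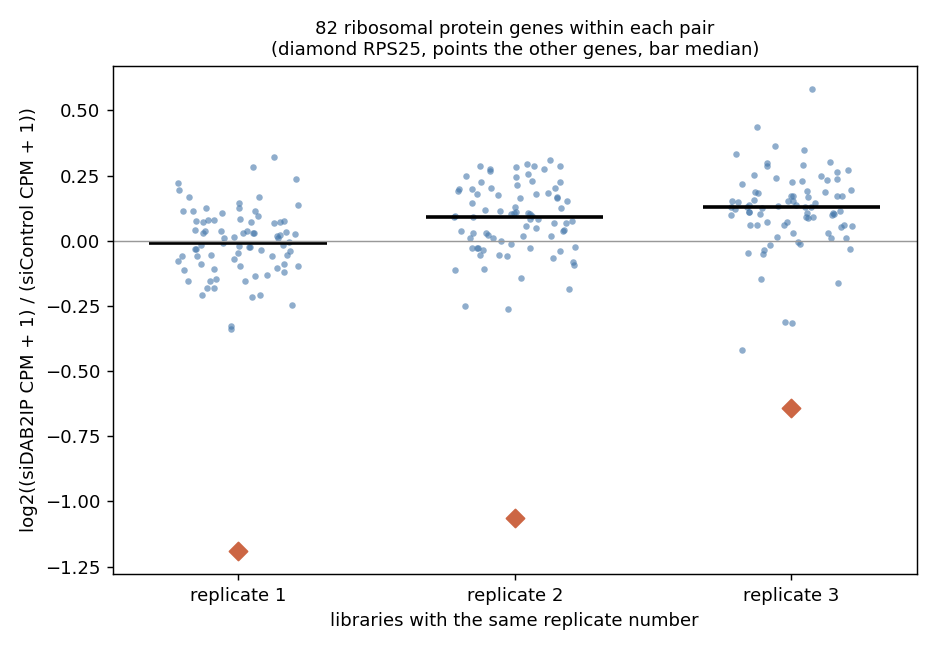
Difference between the siDAB2IP and the siControl library of the same replicate number (log2 of CPM + 1, y axis) for each of the 82 ribosomal protein genes tested, with the median as a bar. RPS25 (diamond) lies below every other gene in all 3 pairs, at -1.19, -1.06 and -0.64, and the cloud of the other genes sits around medians of -0.0072, 0.093 and 0.13.

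RPL5 and RPL11, which bind MDM2 when free of ribosomes, had log2 fold changes of -0.06 ± 0.15 and 0.09 ± 0.17 (edgeR adjusted p = 0.828 and 0.756). RPS6, the S6 kinase substrate, was at 1053, 1025 and 779 CPM in siControl and 1014, 1054 and 808 CPM in siDAB2IP, which overlap. The stalk proteins RPLP0, RPLP1 and RPLP2, which recruit elongation factors, had log2 fold changes of 0.11 ± 0.14, 0.20 ± 0.15 and 0.15 ± 0.11, and none passed the test (edgeR adjusted p = 0.663, 0.396 and 0.424).

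The 5 members with the highest mean FPKM were RPL13A, RPL8, RPS2, RPS12 and RPS18. RPL13A, a large subunit gene whose protein can also silence inflammatory mRNAs, was at 819, 714 and 557 FPKM in siControl and 864, 866 and 668 FPKM in siDAB2IP. RPL8 was at 816, 691 and 531 FPKM in siControl and at 746, 832 and 629 FPKM in siDAB2IP. In both genes the groups overlapped and replicate 3 was lowest in each. The log2 fold changes of the 5 genes lay between 0.015 (RPS12) and 0.20 (RPL13A), with edgeR adjusted p-values of 0.469 to 0.960.

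The 4 lowest of the members tested were RPL39L, RPS10, RPL36A and RPS27L, at mean FPKM values of 1.19, 2.12, 3.36 and 4.75. RPL39L and RPS27L are paralogs, and RPS10 and RPL36A encode standard ribosomal proteins. RPS10 had 64, 100 and 89 counts in siControl and 73, 97 and 121 in siDAB2IP, against 10235 to 17295 for RPS18. RPS10 shares 39.4% of its exon length with the readthrough gene RPS10-NUDT3 on the same strand, which had 0 counts in every library, and RPL36A and RPL17 share 8.40% and 32.7% with such a gene or with small RNAs. How the counting treated reads in these overlaps, or reads that also match pseudogenes, was not given in the sources used here, so the levels of these 3 genes are uncertain. Their fold changes did not pass the test.

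The deposited FPKM divides by the length of all annotated exons together, which for most of these genes exceeds the principal protein-coding transcript. This length equaled the GENCODE exon union for all 84 members and had a median of 2992 bases, against 711 bases for the principal protein-coding transcript, and the ratio of both reached 33.3 (RPS29). The principal transcript ran from 296 to 7686 bases, with 7686 for RPL37 and 6434 for RPS27L. Whether it is the form expressed in these cells was not tested, and levels and shares per principal transcript depend on it. Per kilobase of the principal transcript, the 77 members tested that are not paralogs spread from 8.62 to 1595 CPM per kb with a median of 561 and quartiles of 389 and 767. By FPKM they spread from 2.12 to 748, with a median of 147 and quartiles of 70.3 and 220. Across these 77 genes, which share libraries and scaling, both scales had a Spearman correlation of 0.765.

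The order of the members therefore depends on the length used. RPS29 ranked 77 by FPKM and 62 per principal transcript, RPS14 moved from rank 31 to rank 3, and RPS12 fell from rank 4 to rank 43. RPL8 and RPL13A were the highest members on both scales, and RPL39L and RPS10 stayed among the 5 lowest of those tested. RPS25 was at rank 17 by FPKM and at rank 54 per principal transcript over all 6 libraries. The comparison between the groups does not use gene length.

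**Figure D5:**
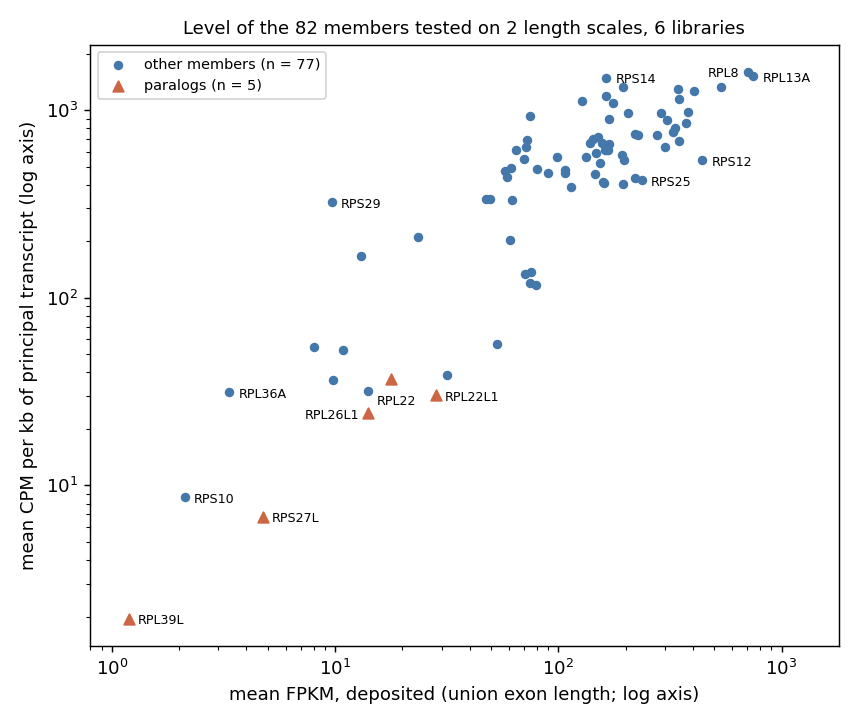
Mean level of the 82 members tested over the 6 libraries, as deposited FPKM (x axis, log scale) and as CPM per kilobase of the principal transcript (y axis, log scale), with paralogs as triangles. Most members lie above 100 CPM per kb, and a tail that includes RPS10, RPL36A and the paralogs lies far lower.

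Paralogs of RPS27, RPL39, RPL7 and RPL3 were minor forms on the deposited FPKM scale, and the shares below depend on the lengths it divides by. In the summed FPKM of each pair, RPS27L made up 1.24%, 1.35% and 1.73% of RPS27L plus RPS27 in siControl and 1.37%, 1.45% and 2.15% in siDAB2IP. RPL39L made up 1.74% ± 0.175 and 1.97% ± 0.332 (SD, n = 3) of its pair with RPL39, and RPL7L1 5.96% ± 0.786 and 6.19% ± 0.695 of its pair with RPL7. RPL3L made up at most 0.0517% of its pair with RPL3.

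Which gene was the larger part of its pair depended on the length for RPL22L1 and RPL26L1. By FPKM, RPL22L1 made up 61.9%, 66.3% and 64.8% of RPL22L1 plus RPL22 in siControl and 69.3%, 72.1% and 64.8% in siDAB2IP, which overlap (difference 4.37 percentage points, exact two-sided permutation test, p = 0.3, adjusted p = 0.8 over the 7 expressed pairs). Per kilobase of the principal transcript it made up 46.0% ± 2.39 in siControl and 51.0% ± 4.29 in siDAB2IP (SD, n = 3). Its own level was 66.0, 74.1 and 57.9 CPM in siControl and 72.1, 81.1 and 46.3 CPM in siDAB2IP. RPL26L1 made up 57.8% ± 7.22 and 55.1% ± 3.01 of its pair with RPL26 by FPKM, and 33.4% ± 6.57 and 30.7% ± 2.61 per kilobase of the principal transcript. RPL26 had 329 to 590 counts per library and shares 14.3% of its exon length with another gene on the same strand. RPL36AL, a paralog of RPL36A outside the naming rule, made up 96.5% ± 0.726 and 96.7% ± 0.688 of their pair by FPKM. How reads in the overlaps of RPL26 and RPL36A were counted was not given. The shares of RPL26L1 and RPL36AL are therefore as uncertain as the levels of RPL26 and RPL36A. In each of the 7 expressed pairs the groups overlapped, the adjusted p was 0.8, and 3 libraries against 3 cannot give a p below 0.1. Within same-numbered libraries, the share by FPKM was higher in siDAB2IP in 3 of 3 pairs for RPS27L (by 0.129, 0.103 and 0.423 percentage points), for RPL39L (0.354, 0.289 and 0.0404) and for RPL3L (0.0252, 0.00777 and 0.0137). The share of RPL3L rests on 0 to 8 counts of that gene per library, too few for it to be tested. For the other 4 paralogs the pairs differed in sign. An exact paired permutation test over 3 pairs cannot give a p below 0.25, the value for these 3 paralogs.

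Some further genes whose products belong to the ribosome are outside the naming rule. FAU encodes a ribosomal protein fused to a ubiquitin-like domain, RACK1 encodes a signaling scaffold on the small subunit, and RPL36AL is the paralog above. Their log2 fold changes were 0.11 ± 0.11, 0.10 ± 0.17 and 0.17 ± 0.13, and none was called (edgeR adjusted p of 0.439 to 0.735). RACK1 was at 1195, 1053 and 817 CPM in siControl and 1207, 1192 and 893 CPM in siDAB2IP, with replicate 3 lowest in each group as for the members.

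Calls in both directions were found among the genes that build the ribosome. Of 106 ribosome biogenesis genes, 3 were called higher and 3 lower, with a median log2 fold change of 0.017. NPM1, a nucleolar chaperone, was at 1200, 1219 and 1015 CPM in siControl and at 819, 868 and 511 CPM in siDAB2IP (log2 fold change -0.64 ± 0.19, edgeR adjusted p = 0.0471). DDX21, a nucleolar RNA helicase, fell by 0.87 ± 0.11 and TCOF1, a cofactor of rRNA transcription, fell by 0.83 ± 0.14 on the log2 scale (edgeR adjusted p = 0.00171 and 0.00523). NOP10, a subunit of box H/ACA particles, PNO1 and NOL6, which act in small subunit assembly, rose by 0.73 ± 0.15, 0.58 ± 0.14 and 0.41 ± 0.09. Leaving out 1 library ended the calls of NPM1 (without any one siControl library or siDAB2IP replicate 1, adjusted p up to 0.14), PNO1 (any one siControl library or siDAB2IP replicate 2, up to 0.0891), NOL6 (siControl replicate 1 or 2 or siDAB2IP replicate 1 or 2, up to 0.112) and NOP10 (siControl replicate 2, 0.0525). DDX21 and TCOF1 were called in every such fit. The shares of 2.83% called in each direction stand beside the 6.55% and 7.65% of all genes. With the replicate block, 6 biogenesis genes were called higher and 7 lower, beside 1479 and 1754 of all genes. Without replicate 3 of both groups, the counts were 6 and 5, beside 1059 and 1304.

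Among the other genes that carry a TOP tract, such as elongation factors and poly(A)-binding protein, 17 of 18 were tested. Of these, 0 were called higher and 1 (NPM1, 5.88%) lower, with a median of -0.018. The shares called in this and the next lists stand beside 6.55% higher and 7.65% lower over all genes tested. Of 15 RNA polymerase I genes, 1 was called lower (6.67%), the subunit gene TWISTNB (-0.48 ± 0.14, edgeR adjusted p = 0.0424). Of 36 initiation factor genes, 1 rose (EIF2B1, 0.47 ± 0.11) and 1 fell (EIF4G2, -0.44 ± 0.11), or 2.78% in each direction. The call of TWISTNB ended without siControl replicate 2 or 3 or siDAB2IP replicate 1 or 2 (adjusted p up to 0.152), that of EIF2B1 without any one siControl library (up to 0.107) and that of EIF4G2 without siControl replicate 2 or 3 or siDAB2IP replicate 1 (up to 0.087). Of 11 elongation and termination factors tested, 1 was called higher (9.09%). EEF1A2, the tissue-restricted form of elongation factor 1A, went from 6.29, 4.27 and 4.29 CPM to 36.7, 38.1 and 51.3 CPM (log2 fold change 3.09 ± 0.20, edgeR adjusted p = 9.7e-05).

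Of 15 host genes of small nucleolar RNAs, 1 (6.67%) was called higher (SNHG8, 0.34 ± 0.09, edgeR adjusted p = 0.0376). Without any one library other than siDAB2IP replicate 3, SNHG8 was not called (edgeR adjusted p up to 0.151). Of 20 genes that control growth and translation or respond to ribosome stress, 1 rose (5%) and 2 fell (10%), beside 6.55% and 7.65% of all genes. CDKN1A, the cell cycle inhibitor p21, went from 149, 147 and 148 CPM to 369, 454 and 739 CPM (log2 fold change 1.81 ± 0.22, edgeR adjusted p = 0.00135). PDCD4, an inhibitor of the helicase eIF4A, fell by 0.69 ± 0.12 on the log2 scale (edgeR adjusted p = 0.00647).

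The proteins of the mitochondrial ribosome, encoded by a separate set of nuclear genes, gave 6 of 78 called higher (7.69%) and 1 lower (1.28%), beside 6.55% and 7.65% of all genes, with a median of 0.087. MRPS27 fell most, from 94.5, 98.7 and 86.9 CPM to 46.3, 47.5 and 30.8 CPM (log2 fold change -1.17 ± 0.15, edgeR adjusted p = 0.00205), while MRPL14 and MRPS12 rose by 0.57 ± 0.15 and 0.52 ± 0.12. With 1 library left out, the count called higher ranged from 0 (without any one siControl library) to 10 (without siDAB2IP replicate 3). Whether the cytosolic and the mitochondrial genes differed in their share of calls was not tested.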

How the data were processed

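RNA-Seq data of 6 MCF10A libraries (3 siControl, 3 siDAB2IP) were used. Libraries were sequenced by Novogene as paired-end reads of 150 bases. The submitters' processing notes name STAR 2.6.1d, featureCounts 1.5.0-p3, DESeq2 1.20.0, edgeR 3.24.3 and hg38, with no role given. The authors deposited raw counts per gene and, in another table, FPKM values, per kilobase of gene length and, judged from the values, per library total adjusted by a size factor. All 58735 genes matched GENCODE release 29 in start, end and strand.

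The test of the counts was edgeR's quasi-likelihood test (edgeR 4.0.16 under R 4.3.3), after filterByExpr and TMM scaling, with Benjamini-Hochberg adjustment over 15430 genes, and the script was tested on simulated data. Paralog shares were compared by exact permutation tests. Alternatives used DESeq2 1.42.0, limma 3.58.1 on log2(FPKM + 1) or log2(FPKM + 0.1), other scalings and filters, and each library left out. A count of 0 allows up to 3 counts, or 0.137 to 0.183 CPM. The principal transcript was the shortest APPRIS principal one.

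The labels give replicates 1 to 3 in each group. The deviations of same-numbered libraries from their group means correlated at 0.319, 0.213 and 0.277 over all genes tested. The numbers were therefore taken to pair the libraries in the replicate block and in the comparisons within pairs. The reported fit does not use this pairing.

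The members and lists were chosen with earlier results of these data known. Genes were named by rule: DAB2IP, members called, the 5 highest and 5 lowest by FPKM, paralogs, ribosomal genes outside the naming rule and called members of the other lists, and a few genes that the rule names are not reported here. RPL22, RPL9, RPS19 and RPS26 were added after their values were seen, and RPL5, RPL11, RPS6, RPL17, RPS14, RPS29 and the stalk genes were named for their role or position.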

Additional observations from a re-analysis of the deposited data

Results flagged for a closer look

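The 1144 rows annotated as ribosomal protein pseudogenes are outside the comparison above and took 0.0285% to 0.0402% of the counts of a library. 350 had a count, 56 were tested, 3 were called higher (5.36% of those tested, near the 6.55% of all genes) and 0 lower (edgeR quasi-likelihood test, adjusted p under 0.05). At an unadjusted p under 0.05, 4 were higher and 0 lower. The 3 are given because they rise above the control libraries in rows that the comparison of the ribosomal protein genes leaves out.

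RPSAP52 was at 52, 101 and 67 counts in siControl and at 151, 165 and 144 in siDAB2IP, a log2 fold change of 1.12 ± 0.19 (SE; edgeR adjusted p = 0.00557), and it overlaps the span of HMGA2 on the opposite strand with no shared exon bases, and HMGA2's own log2 fold change was -0.01 ± 0.21. RPL23AP82 was at 120, 177 and 161 counts in siControl and at 252, 265 and 374 in siDAB2IP, a log2 fold change of 1.01 ± 0.19 (edgeR adjusted p = 0.00994), and its exons overlap RABL2B on the opposite strand, at 0.28 ± 0.15. RPL23AP7 was at 77, 96 and 74 counts in siControl and at 125, 120 and 141 in siDAB2IP, a log2 fold change of 0.69 ± 0.18 (edgeR adjusted p = 0.0313), and this call was lost without replicate 3 of both groups (adjusted p = 0.0917). In all 3 rows the groups did not overlap, but the rows were picked because they were called, so this adds no support. Of all genes tested, 17.6% had every siDAB2IP library above every siControl library. Reads of a pseudogene and of its parent gene can be near-identical, and how the counting assigned them was not given in the sources used here.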

How the results depend on the processing

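Under each of the alternatives run, 0 ribosomal protein genes were called higher, and RPS25 was called lower in all 17 other fits (log2 fold change -1.13 to -0.90, highest adjusted p = 0.0127 without siControl replicate 2). With the replicate block, 2 members were called lower (RPL22 joined RPS25) in place of 1 and no other member's call changed, and over all genes 1479 and 1754 were called higher and lower in place of 1011 and 1181. Counts over all genes were 254 and 368 at an adjusted p under 0.01 and 659 and 758 by limma on log2(FPKM + 0.1), and 264 to 1172 and 459 to 1352 with 1 library left out.

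The median of the members ranged from -0.067 (without siControl replicate 3) to 0.15 (without siDAB2IP replicate 3) when 1 library was left out, was 0.048 without replicate 3 of both groups, a fit chosen after seeing the data, and lay between 0.053 and 0.10 under the other settings. Library size scaling moved the median of all genes from 0.0090 to 0.046. Without the mitochondrially encoded genes in the total, the members took 4.49% of the counts in siDAB2IP (4.01% with them) and 4.19% in siControl (3.73%).

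Some uncalled values changed sign. Without siControl replicate 3, the log2 fold changes were -0.047 for RPL8, -0.11 for RPS2, -0.14 for RPS12, -0.081 for RPS18, -0.094 for RPL22L1 and -0.052 for RACK1. Without siDAB2IP replicate 2, they were -0.016 for RPS2, -0.067 for RPS12, -0.16 for RPL22L1 and 0.0021 for RPL26L1. Without siControl replicate 1, they were -0.014 for RPL22L1 and 0.019 for RPL26L1, and RPL26L1 was at 0.026 without siControl replicate 2. RPL22L1 and RPL26L1 were at -0.051 and 0.0007 without siDAB2IP replicate 1. Without replicate 3 of both groups, RPS12 was at -0.038, while RPL8, RPS2, RPS18 and RPL22L1 stayed above 0, at 0.069, 0.036, 0.015 and 0.13. RPL22L1 was also below 0 with TMM factors from the other genes (-0.0056), a minimum of 10 counts (-0.0048), the replicate block (-0.017) and both limma fits (-0.022 and -0.024). RPL26L1 was above 0 with library size scaling (0.034), protein-coding genes only (0.0045) and the replicate block (0.0003). With 1 library left out, the difference in a paralog's share ranged from 2.66 to 6.34 percentage points for RPL22L1, 0.126 to 0.419 for RPL39L, 0.00251 to 0.0238 for RPL3L, -0.0281 to 0.362 for RPS27L, -6.33 to 0.891 for RPL26L1, -0.193 to 0.588 for RPL7L1 (-0.164 without siDAB2IP replicate 3) and -0.206 to 0.573 for RPL36AL (-0.112 without siDAB2IP replicate 2). The highest log2 fold changes with 1 library left out were 0.25 for RPL8 and 0.24 for RPS2 (without siControl replicate 1), and 0.16 for RPS18, 0.22 for RPL22L1 and 0.23 for RACK1 (without siDAB2IP replicate 3). With 1 library left out, RPS19 ranged from 0.13 to 0.25, RPS26 from 0.13 to 0.26 and RPS27L from 0.18 to 0.41. The paralog shares per principal transcript and within same-numbered libraries (replicate block) were computed after seeing the data, and the mean difference within pairs for RPL22L1 was 4.37 percentage points, as without pairing. The cause of these changes was not tested.

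Of the other genes named, NPM1 kept its call in 11 of 17 fits, TWISTNB in 9 and SNHG8 in 7 of 16, while DDX21, TCOF1, EEF1A2, CDKN1A and PDCD4 kept theirs in all 17. MRPS12 lost its call without any one siControl library (adjusted p up to 0.0804), and MRPL14 without any one library other than siDAB2IP replicate 3 (up to 0.103).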
